A study of Canis lupus familiaris with 6 samples.

Results

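Of the claudin family, the 10 genes described here were CLDN1, CLDN2, CLDN3, CLDN4, CLDN7, CLDN8, CLDN10, CLDN12, CLDN16 and CLDN19, a chosen list of claudins of kidney epithelium. They were measured in β-cat ΔN/RasV12 cells grown alone or among β-cat ΔN cells. Their probes were those that the array design names after one of these genes. That gave 13 of 43603 non-control probes, and CLDN2 had 3 of them. These genes were chosen with the contrast between the cultures already known, so their differences between cultures are given as a description, without a p.

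MDCK is an epithelial line from dog kidney. Every sample consisted of MDCK cells that carried mCherry-β-catenin Δ131, a stabilised β-catenin from which 131 N-terminal residues were removed, and that expressed GFP-RasV12, an active Ras, under tetracycline control. In single culture these cells were plated alone (3 arrays), and in mix culture they were plated with MDCK mCherry-β-catenin Δ131 cells, 10 for each RasV12 cell (3 arrays). Dishes coated with collagen were seeded at a fixed cell number and received tetracycline for 24 h in both groups, after which the GFP-positive cells were collected by flow cytometry. The neighbours therefore carried the same β-catenin as the sorted cells, and no group lacked it. The sources used here give no purity of the sort and do not say whether replicates were separate cultures, so p-values measure the spread between these samples alone, which may be technical.

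Claudins are membrane proteins that join adjacent epithelial cells at the tight junction. Some, such as CLDN2, CLDN10 and CLDN16 with CLDN19, form pores that let small ions or water pass between cells, whereas others, such as CLDN1, CLDN3 and CLDN4, mainly seal the junction. Each segment of the kidney tubule uses its own set, and MDCK strains are known to differ in junctional resistance with their content of CLDN2.

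Each array was a single-colour Agilent canine array of 43803 non-control spots, and 61.11% to 65.66% of them passed the scanner software's test for being well above background. The 75th percentile of signal ran from 161 to 233.1 intensity units, and it was subtracted from each array on the log2 scale, so a normalised log2 signal of 0 is the level of that percentile. A probe was tested with limma where it was well above background on all 3 arrays of at least 1 group (26623 probes). Replicate 1 of both groups lay on slide 1 and the other 4 arrays on slide 2, and values are given within each slide as well. Of 7 kidney epithelium markers, 5 were on the array (CDH1, EPCAM, KRT18, CDH16 and PAX8). At their brightest probe all were well above background on all 6 arrays. Of markers of other cell types, 2 of 4 for leukocytes (CD3E and CD79A), 2 of 4 for fibroblasts (COL1A2 and PDGFRB) and 2 of 3 for endothelium (PECAM1 and KDR) were above background on all 6 arrays at their brightest probe, whereas PTPRC, AIF1 and DCN were above it on none. limma called none of these markers between cultures. Of the thick ascending limb and distal tubule markers, SLC12A1 was above background on all arrays, whereas UMOD, SLC12A3 and PVALB were above it on none. At their brightest probes, 5 of 7 collecting duct markers (AQP2, AQP3, SCNN1B, SCNN1G and FOXI1) were above it on all arrays. So were 3 of 5 proximal tubule markers (LRP2, CUBN and SLC5A2).

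Probe sequences, each of 60 bases, are shown in the order CLDN2, CLDN4, CLDN1, CLDN7 and CLDN6, since the claudins they read lead the account below or are the brightest. Capitals mark the longest run of bases that each shares with a member probe of another gene, the leftmost where several were equally long.
CLDN2 (518 bases into its transcript): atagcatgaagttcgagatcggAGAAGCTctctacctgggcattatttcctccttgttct
CLDN4: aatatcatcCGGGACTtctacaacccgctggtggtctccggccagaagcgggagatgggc
CLDN1: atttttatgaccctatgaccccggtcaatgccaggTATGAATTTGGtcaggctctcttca
CLDN7: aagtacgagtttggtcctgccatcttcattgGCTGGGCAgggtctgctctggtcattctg
CLDN6: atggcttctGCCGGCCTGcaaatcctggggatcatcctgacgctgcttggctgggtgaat
Over the 74 pairs of member probes from different genes, the longest shared run was 11 bases, between a CLDN10 probe and the CLDN1 probe. The most bases that any such pair had in common, aligned without gaps, was 29 of 60. The 2 CLDN10 probes, in contrast, overlapped by 53 bases and are not independent readings.

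CLDN2, which forms a pore for sodium and water in leaky epithelia, had a higher signal in mix culture than in single culture at each of its 3 probes. Its brightest probe lies 2047 bases into its transcript record, at chrX:80486411-80486470 on the plus strand (CanFam3.1). There the signal was 405, 80.4 and 107 intensity units in single cultures 1, 2 and 3, and 1483, 2153 and 1711 in mix cultures 1, 2 and 3. Every mix culture was brighter than every single culture, and single culture 1, on slide 1, stood well above the other single cultures. The 3 single cultures averaged -0.25 ± 1.08 in normalised log2 signal, against 3.22 ± 0.48 for the 3 mix cultures (SD), a difference of 3.47 (SE 0.53, 95% interval 2.22 to 4.73), which is 11.1-fold. In RNA of sorted cells, fewer cells of a kind and less RNA per cell cannot be told apart.

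The size of the CLDN2 difference was not the same on the slides. It was 1.69 on the log2 scale on slide 1 (3.24-fold) and 4.36 on slide 2 (20.6-fold), and whether these differ was not tested. On slide 2 the 2 single cultures lay 0.36 apart on the log2 scale and the 2 mix cultures 0.17 apart. Between slides, with culture in the model, this probe was 0.51 lower on slide 2 (SE 0.49, limma adjusted p = 0.417).

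The other CLDN2 probes lie upstream on the same strand, were designed to another transcript record of the gene and were dim. At the probe printed above (518 bases in, chrX:80484427-80484486), single cultures read 4.77, 5.55 and 5.63 and mix cultures 10.9, 27.2 and 21.5. None of the single cultures was well above background there and all mix cultures were. The means differed 3.33-fold, with 2.01-fold on slide 1, against single-culture signals that were not measured above background, and after normexp background correction the log2 difference was 0.20, so the size at this probe is not settled. Mix culture 1 was the lowest of its group, as it was at the brightest probe.

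At the probe 891 bases in (chrX:80484800-80484859), single cultures read 0.864, 0.860 and 0.875 and mix cultures 2.66, 15.7 and 12.03. It was well above background on the 2 mix cultures of slide 2 alone and was not tested. The mean of the 3 mix cultures was 1.79-fold the lowest signal well above background of the single-culture arrays. That mean includes mix culture 1, which was not above background, so the value is not a strict minimum. On slide 1 neither culture was above background at this probe, so no difference is given for that slide. Over the 6 arrays the profiles of the 3 probes had correlations of 0.80 to 0.99. These points share their RNA, and the arrays fall into 2 cultures.

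**Figure D1:**
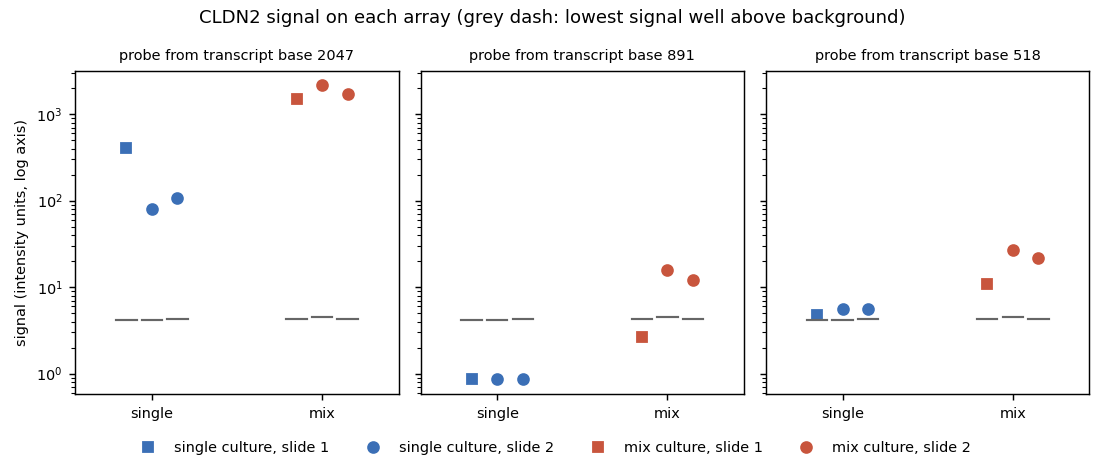
Signal of the 3 CLDN2 probes on each array, in intensity units on a log axis, with single cultures in blue, mix cultures in red, slide 1 as squares and slide 2 as circles. The brightest probe, 2047 bases into its transcript record, read 1483 to 2153 in mix culture and 80.4 to 405 in single culture, and the grey dashes give each array's lowest signal among spots called well above background (4.19 to 4.48), a call made spot by spot, so that a signal just over a dash need not pass it.

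With culture alone in the model, limma called 1 of the 10 tested member probes, the brightest CLDN2 probe, where 0.883% of all 26623 probes were called in either direction. Counted by gene at its brightest probe, that was 1 of 8 tested genes, against 0.956% of 10666 symbols. With the slide as a block 3 member probes were called, where 7.2% of all probes and 7.57% of symbols were. These were the brightest CLDN2 probe and the one 518 bases in, both higher in mix culture, and CLDN4, which was lower. The probe 518 bases in passed the background filter through mix culture alone, the group where it was high. Neither its calls nor its lack of overlap therefore count as support. The replicate block, which pairs cultures by number, called the same 3 member probes. The brightest CLDN2 probe was called without single culture 1, where its log2 difference was 4.09. It was not called without any other single array, where the difference ran from 3.07 to 3.75. The groups did not overlap for 3 of the 10 tested member probes (both tested CLDN2 probes and CLDN19), against 16.5% of all probes. Since the members were chosen from this contrast, nothing is read from these counts.

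**Figure D2:**
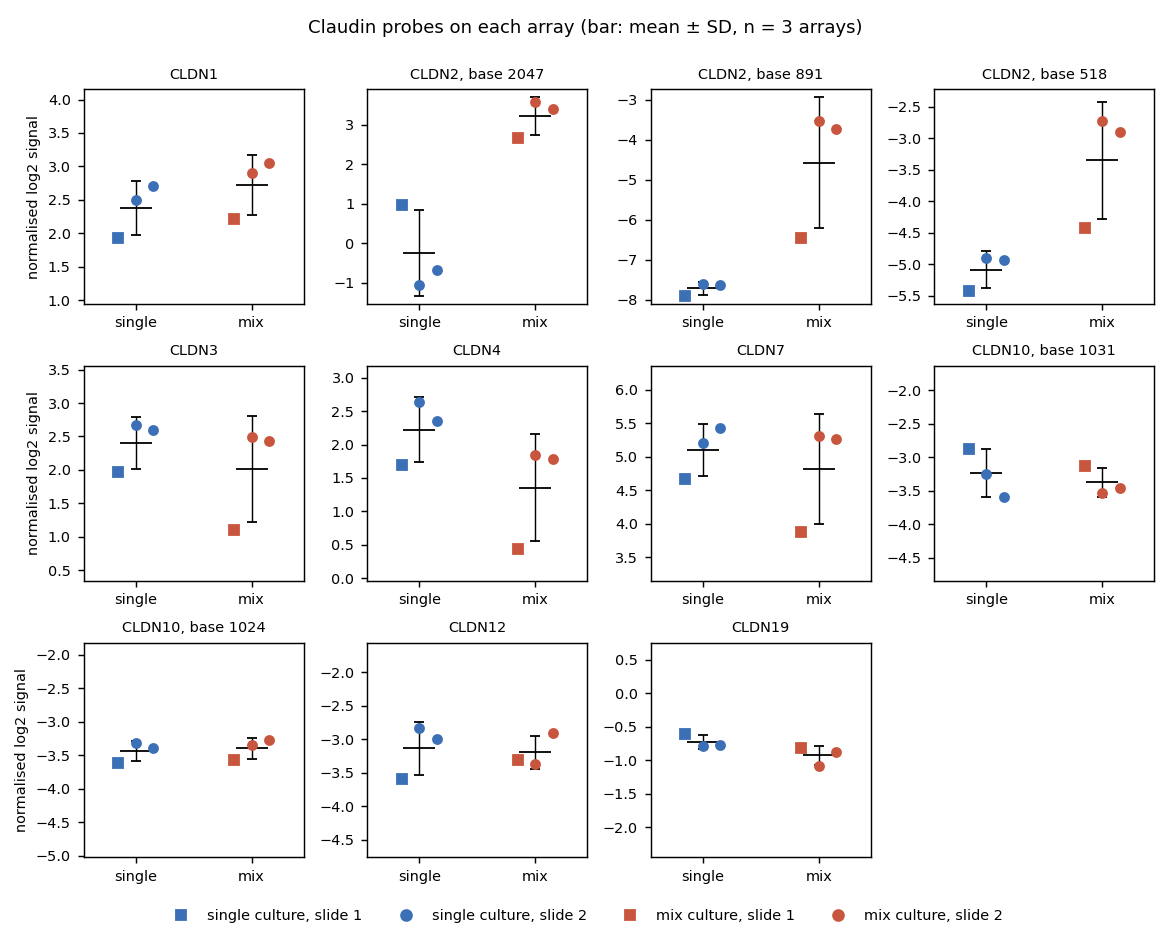
Normalised log2 signal of the 11 claudin probes above background on at least 1 array, with a point for each array (blue, single culture; red, mix culture; squares, slide 1; circles, slide 2) and a bar for the mean ± SD of 3 arrays. Each panel has its own range and levels cannot be compared between panels. CLDN2 stood higher in mix culture at each of its probes, whereas the CLDN1, CLDN3, CLDN4 and CLDN7 panels show the slide 1 array of each culture below the slide 2 arrays.

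Among the sealing claudins, CLDN4, which limits sodium passage and is widely expressed in the distal tubule and collecting duct, had the lower signal in mix culture. The probe at chr6:6493663-6493722 on the minus strand read 663, 1032 and 878 in single cultures and 315, 650 and 554 in mix cultures. On each slide the mix cultures were the dimmer ones. Across slides the groups overlapped after normalisation, since mix cultures 2 and 3 lay above single culture 1. The 3 single cultures averaged 2.22 ± 0.48 in normalised log2 signal, against 1.36 ± 0.80 for the 3 mix cultures (SD). The log2 difference of -0.87 (SE 0.43) had a 95% interval of -1.87 to 0.14 across both slides and of -1.21 to -0.52 with the slide as a block. It was -1.26 on slide 1 and -0.67 on slide 2.

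CLDN3, a sealing claudin whose gene lies beside CLDN4, had a smaller difference in the same direction. At chr6:6535160-6535222 on the plus strand it read 802, 1063 and 1040 in single cultures and 498, 1021 and 872 in mix cultures. The groups overlapped, and mix culture 1 was far below the rest. The log2 difference was -0.40 (SE 0.41, 95% interval -1.36 to 0.56), with -0.87 on slide 1 and -0.17 on slide 2. Without mix culture 1 it was 0.06, so its sign rests on that array.

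CLDN7, a claudin found along the basolateral membrane as well as at the junction, read 5203, 6126 and 7411 in single cultures and 3399, 7158 and 6181 in mix cultures (chr5:32224315-32224470, minus strand). The groups overlapped. Its log2 difference was -0.28 (SE 0.42, 95% interval -1.26 to 0.70), made up of -0.79 on slide 1 and -0.03 on slide 2. Without mix culture 1 the difference was 0.19, so here too the sign rests on that array.

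CLDN1, a barrier-forming claudin of many epithelia, differed in the other direction. Its probe covers 1730 bases of chromosome 34 (chr34:22305700-22307429, minus strand), more than its own length, and read 782, 941 and 1126 in single cultures and 1084, 1358 and 1341 in mix cultures. On each slide the mix cultures were brighter, and across slides the groups overlapped. The log2 difference was 0.35 (SE 0.29, 95% interval -0.34 to 1.05), with 0.29 on slide 1 and 0.38 on slide 2. Another probe, described by the array design as a CLDN1 sequence but not named so, read 279, 267 and 230 in single cultures and 286, 221 and 207 in mix cultures, a log2 difference of -0.19 (SE 0.15). These probes therefore did not show the same direction for CLDN1.

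**Figure D3:**
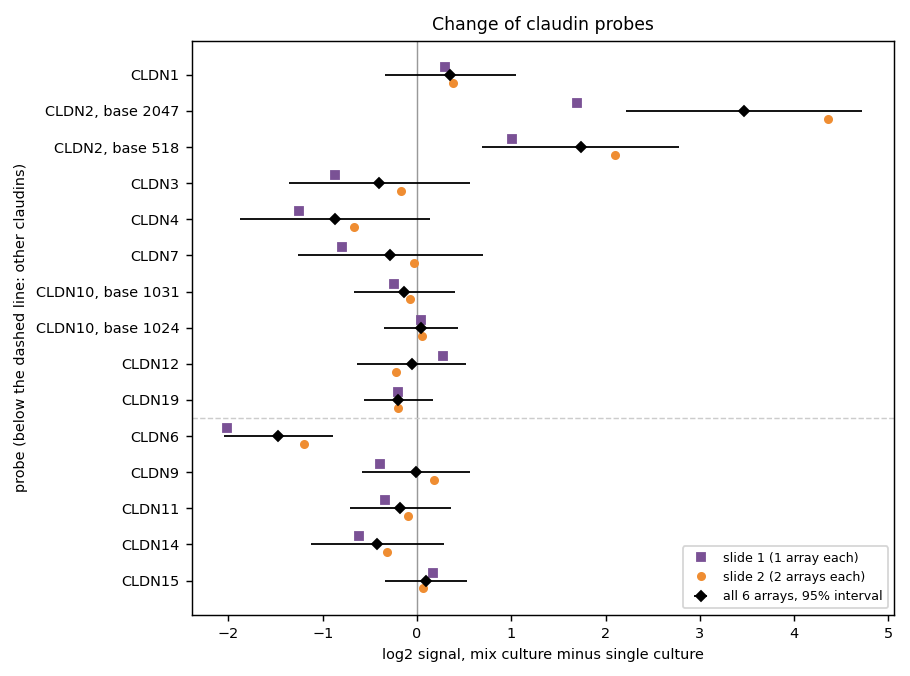
Log2 difference in signal, mix culture minus single culture, of each tested claudin probe, with the 95% interval from limma over 6 arrays (diamonds), the value on slide 1 (squares, 1 array per culture) and the value on slide 2 (circles, 2 arrays per culture). The interval of the brightest CLDN2 probe ran from 2.22 to 4.73, the CLDN2 probe 518 bases in was above background in mix culture alone and its interval is no measure of size, and the CLDN4 value was below 0 on both slides (-1.26 and -0.67), as was that of CLDN6, which is not a member (-2.01 and -1.20).

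The remaining members, CLDN19, CLDN10, CLDN12, CLDN8 and CLDN16, showed smaller differences or were above background on no array. CLDN19, the partner of CLDN16 in magnesium and calcium handling in the thick ascending limb, read 134, 96.3 and 101 in single cultures and 132, 85.3 and 87.5 in mix cultures (chr15:630666-630725, plus strand). After normalisation the single cultures lay between -0.79 and -0.61 and the mix cultures between -1.08 and -0.81, without overlap. The log2 difference was -0.20 (SE 0.15, 95% interval -0.56 to 0.17) and was -0.20 on each slide.

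CLDN10, whose isoforms form pores for cations or anions, was read by the 2 overlapping probes on chromosome 22. The probe at chr22:46225012-46225071 read 28.0, 17.6 and 14.3 in single cultures and 26.7, 15.6 and 14.7 in mix cultures, a log2 difference of -0.13 (SE 0.23, 95% interval -0.67 to 0.40). The probe that starts 7 bases upstream, at chr22:46225005-46225064, read 16.9, 16.7 and 16.5 in single cultures and 19.6, 17.8 and 16.8 in mix cultures, a difference of 0.04 (SE 0.17, 95% interval -0.35 to 0.43). The cultures overlapped at both.

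CLDN12, a broadly expressed claudin linked to calcium passage, read 17.1, 23.5 and 21.5 in single cultures and 23.5, 17.5 and 21.3 in mix cultures (chr14:16293213-16293272, plus strand). Its log2 difference was -0.06 (SE 0.24, 95% interval -0.63 to 0.52), and it was 0.28 on slide 1 and -0.23 on slide 2. CLDN8, a claudin of the collecting duct, read between 0.964 and 1 and was not well above background on any array (chr31:25089783-25089842). CLDN16 read 1.43 to 4.91 and was likewise above background on none (chr34:22411987-22412046). Neither was tested, and no fold is given for them.

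The slide, a split that played no part in the choice of members, moved probes across the whole array. Several claudins were among them, with slide differences larger than those between cultures. limma called 6 of the 10 tested member probes as differing between slides, where 47.2% of all probes were called, so nothing particular to claudins is read from this count. On slide 2 CLDN4 was higher by 1.09 on the log2 scale (SE 0.16, limma adjusted p = 0.00127), CLDN7 by 1.03 (SE 0.18, limma adjusted p = 0.00255) and CLDN3 by 1.02 (SE 0.16, limma adjusted p = 0.00188). CLDN1 was higher by 0.72 (SE 0.12, limma adjusted p = 0.00211) and the CLDN2 probe 518 bases in by 1.05. No single culture was above background at that CLDN2 probe, which passed the filter through mix culture alone. Its slide value is therefore no measure of size, and its call, counted among the 6, is not read. The one called member probe with a lower signal on slide 2 was the downstream CLDN10 probe, at -0.46 (SE 0.13, limma adjusted p = 0.0234). Its overlapping partner gave 0.26 (limma adjusted p = 0.0739). The slides also differed in scanner resolution and in software version, and these cannot be told apart from the replicate number.

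**Figure D4:**
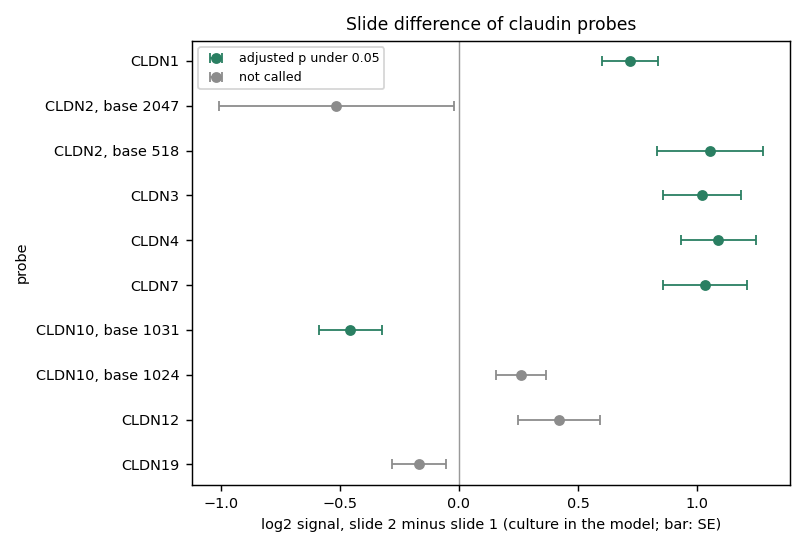
Log2 difference in signal between slides (slide 2 minus slide 1) of the 10 tested claudin probes, from limma with culture in the model and bars of 1 SE. The 6 probes in green had an adjusted p under 0.05 over all 26623 probes, and CLDN1, CLDN3, CLDN4, CLDN7 and the CLDN2 probe 518 bases in lay between 0.72 and 1.09. No single culture was above background at that CLDN2 probe, so its value is no measure of size and its call is not read.

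Of 14 further claudins, 10 were on the array and 5 were tested, and none was called by limma over all probes (1 had an unadjusted p under 0.05, and the methods' t-test with Benjamini-Hochberg adjustment also called 0). The exception at the unadjusted level was CLDN6, a claudin of embryonic epithelia, printed above and located at chr6:38170608-38170667. It read 96.3, 77.7 and 81.0 in single cultures and 27.0, 37.6 and 32.2 in mix cultures. All mix cultures lay below all single cultures. Its log2 difference was -1.47 (SE 0.25, limma adjusted p = 0.0548), with -2.01 on slide 1 and -1.20 on slide 2. With the slide as a block it was called as lower (limma adjusted p = 0.00228), where 7.57% of all symbols were called in either direction.

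CLDN14, which is known to reduce calcium passage in the thick ascending limb, read 1643, 778 and 700.0 in single cultures and 1216, 611 and 577 in mix cultures. Its difference of -0.42 (SE 0.30, limma adjusted p = 0.819) did not pass the test. CLDN11, of myelin and testis, gave -0.18 (SE 0.23, limma adjusted p = 0.939). CLDN9 and CLDN15 lay at -0.01 and 0.10. The median of the 5 tested claudins was -0.18, where the median over all 10666 symbols was -0.05.

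The remaining tight junction proteins were read from a list of 44 symbols, of which 33 were on the array and 26 were tested. limma called 0 of them, 3 had an unadjusted p under 0.05 and the methods' t-test called 0. In the fitted values 6 were above 0 and 20 below, where 6257 of all 10666 symbols lay below 0. The median was -0.20 on the log2 scale (-0.25 on slide 1 and -0.19 on slide 2) beside -0.05 over all symbols. The largest differences were those of CGNL1 (paracingulin), at -0.60 (SE 0.35, limma adjusted p = 0.762), of ARHGEF2 (the RhoA exchange factor GEF-H1, which cingulin holds at junctions), at -0.55 (SE 0.23, limma adjusted p = 0.561), and of RAB13 (a small GTPase of junctional trafficking), at -0.49 (SE 0.24, limma adjusted p = 0.679). A dimmer CGNL1 probe gave -1.001 (limma adjusted p = 0.0999 without and 0.0126 with the slide as a block).

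With the slide as a block, 1 of the 26 tested tight junction genes was called at its brightest probe, where 7.57% of all symbols were called. That gene was MPP5, which codes for the polarity scaffold PALS1. It read 151, 136 and 140 in single cultures and 251, 204 and 167 in mix cultures, a log2 difference of 0.46 (limma adjusted p = 0.352 without and 0.0364 with the block). The membrane protein occludin (OCLN) gave -0.14 (SE 0.18) and the scaffold ZO-1 (TJP1) -0.05 (SE 0.27) at their brightest probes, named here after their values were seen. The block also called dimmer probes of CGNL1, TJP1 and CSDA, all lower, where it called 7.2% of all probes in either direction. At the TJP1 probe the difference was -0.45 (limma adjusted p = 0.484 without and 0.0396 with the slide block). JAM3, a junctional adhesion molecule, was 1.92 on slide 1 and -0.43 on slide 2.

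**Figure D5:**
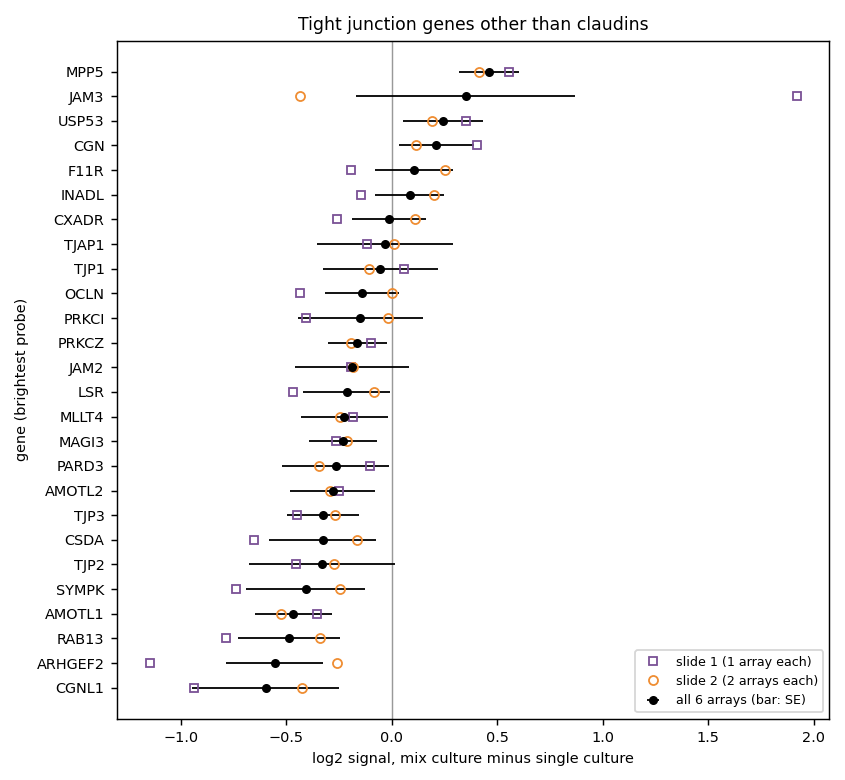
Log2 difference in signal, mix culture minus single culture, of the 26 tested tight junction genes other than claudins at their brightest probe, with the fitted value and its SE (filled points), the value on slide 1 (open squares) and on slide 2 (open circles). Values ran from -0.60 for CGNL1 to 0.46 for MPP5, and limma called none of them over all probes. Below 0 lay 20 of 26, where 6257 of all 10666 symbols did.

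Kinases, proteases, ubiquitin ligases and membrane partners that act on claudin proteins formed a list of 16, and 12 were tested. limma called 0 of these (3 at an unadjusted p under 0.05, and 0 by the methods' t-test), and the median was -0.18. EPHA2, a receptor kinase that phosphorylates CLDN4, gave -0.63 (SE 0.22, limma adjusted p = 0.456). CD9, a tetraspanin that associates with CLDN1, gave -0.48 (SE 0.15, limma adjusted p = 0.333). With the slide as a block CD9 was called as lower (limma adjusted p = 0.0389), where 7.57% of all symbols were called in either direction. EPCAM, an epithelial adhesion molecule that binds CLDN7 and was named after its value was seen, gave -0.02 (SE 0.23).

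Transcription factors known to act on claudin genes numbered 23, with 19 on the array and 11 tested. limma called 0 (2 at an unadjusted p under 0.05, and 0 by the methods' t-test). With the slide as a block it called 2 as higher, where 7.57% of all symbols were called in either direction. ELF3, an epithelial ETS factor that activates the CLDN7 gene, read 155, 210 and 212 in single cultures and 292, 719 and 503 in mix cultures. On the normalised scale its groups overlapped across slides but not within slide 2. The log2 difference was 1.25 (SE 0.44, limma adjusted p = 0.456 without and 0.00575 with the slide block), with 0.74 on slide 1 and 1.501 on slide 2.

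SNAI1, or Snail, which represses claudin genes in epithelial-mesenchymal transition, read 22.5, 23.4 and 28.9 in single cultures and 37.4, 52.8 and 44.8 in mix cultures. Every mix culture was brighter than every single culture in raw signal, although the normalised values overlapped. The difference was 0.78 (SE 0.28, limma adjusted p = 0.469 without and 0.00982 with the slide block). GATA6, a zinc finger factor of endodermal epithelia, gave -0.38 (SE 0.24, limma adjusted p = 0.783).

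Ras itself and the transcripts that report on its ERK pathway were followed beside the claudins, since the groups share RasV12 but the sort could have held cells without it. Of 12 tested, limma called 1, SPRY4, a feedback inhibitor of Ras signalling, which fell by 1.36 (SE 0.21, limma adjusted p = 0.0357). SPRY4 read 33.8, 33.7 and 36.6 in single cultures and 16.3, 11.4 and 15.2 in mix cultures. With the slide as a block 4 were called, all lower, SPRY4, ETV5 at -0.86, FOSL1 at -0.55 and DUSP6 at -0.49. Over all symbols 0.956% were called without the block and 7.57% with it, in either direction. HRAS read 12910, 18890 and 15120 in single cultures and 10530, 9258 and 11830 in mix cultures, a difference of -0.63 (SE 0.28, limma adjusted p = 0.608 without and 0.065 with the slide block). The transcripts of EPHA4 and IER3 lay highest, at 0.37 and 0.35. Over all 10666 symbols 6257 fitted values were below 0. Over the 12 transcripts 7 were below 0 and 5 above it, with a median of -0.17. The part of these transcripts in the claudin values was not tested. Among the epithelial markers, E-cadherin (CDH1) gave -0.47 (SE 0.15, limma adjusted p = 0.384 without and 0.0444 with the slide block), and its part was not tested either.

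Profiles over the 6 arrays were set against that of the brightest CLDN2 probe. Among 17242 probes with a symbol and well above background on all arrays, the nearest by Euclidean distance after centring were TMEFF2 (distance 0.967, r = 0.98), LOC100856475 (1.23, r = 0.964), APOBEC1 (1.305, r = 0.959), OAS2 (1.55, r = 0.953), IFGGB1 (1.57, r = 0.957) and CLIC2 (1.66, r = 0.979). All arrays enter each distance, and the arrays fall into 2 cultures, so r mostly describes the step between them. TMEFF2, a membrane protein with follistatin-like domains, read 422, 112 and 244 in single cultures and 1476, 3035 and 2058 in mix cultures. Like CLDN2, each of these nearest genes had its highest single culture on slide 1 and a smaller log2 difference there than on slide 2. TMEFF2 gave 1.63 on slide 1 and 3.91 on slide 2. OAS2, an interferon-induced sensor of double-stranded RNA, gave 2.68 and 3.13.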

How the data were processed

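Total RNA of sorted β-cat ΔN/RasV12 cells was labelled with Cy3 and hybridised to the Canine (V2) Gene Expression Microarray. The authors deposited a scanner file per array, with spot intensity on a linear scale after background subtraction by Agilent Feature Extraction (version 11.5.1.1 on slide 1 and 12.1.1.1 on slide 2, per the file headers). A further table deposited by the authors holds log2 values of the same arrays, and its steps are not given in the sources used here. In it each probe had a median of 0 within each slide (to 0.011, for 100% of probes tested), and the columns of mix cultures 2 and 3 matched each other's scanner files (r = 0.999 and 0.993, against 0.457 and 0.459 for their own), so it was compared between groups without replicate numbers.

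Log2 of the processed signal was taken, flagged spots (5 to 9 per array) and control spots were left out, repeated spots were reduced to their mean, and arrays were scaled by subtracting the 75th percentile. No spot was saturated. Probes well above background on all arrays of at least 1 group were tested two-sided (R 4.3.3, limma 3.58.1, functions lmFit and eBayes), Benjamini-Hochberg adjustment ran over all 26623 probes, and a call is an adjusted p under 0.05. The main model held culture alone, as the study's unpaired comparison does. Differences are mix culture minus single culture, errors are SD unless named SE, and the number of arrays limits the precision. Where a group was not above background, the other group's mean was set against each array's lowest signal among spots well above background. The probe's own signal was used instead if higher.

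Groups and numbers came from the sample titles. Same-numbered arrays deviated together from their group means, at r = 0.801 (replicate 1), 0.53 (replicate 2) and 0.572 (replicate 3). Replicate 1 of each culture shared slide 1 and replicates 2 and 3 slide 2, so slide differences alone could give such correlations. These correlations were taken as pairing for the replicate block, but they do not show pairing by number beyond the shared slide. Symbols were those of the array design (22683 probes by gene name and 1453 by description, of 43603), and all 10 members were found in a RefSeq gene table of UU_Cfam_GSD_1.0 used for names alone. Positions are those in the scanner files (CanFam3.1), and exon annotation was not used here. A list gene was read at its brightest probe. Named were all members, HRAS, and of each list the called genes and, where under 3 were called, the largest differences up to 3 in all. A gene named by this rule is left out of the text. The members, the lists and this rule were chosen with earlier results of these data known. The alternatives were a slide block, a replicate block, the methods' t-test, normexp on the spot signals, quantile normalization, 2 other filters, the authors' table, slide 2 alone and leaving out each array, and the test was tried on simulated data first.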

Additional observations from a re-analysis of the deposited data

How the results depend on the processing

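limma called 235 probes in the main setting. The count was 1917 with the slide block, 1399 with the replicate block, 983 on slide 2 alone, 143 among probes above background on all 6 arrays, 101 with normexp, 4077 in the authors' table and 8 by the methods' t-test (2590 at its unadjusted threshold). Leaving out 1 array gave 86 to 242, and the count fell most without single culture 3 (94), mix culture 2 (92) or mix culture 3 (86). A replicate block with mix cultures 2 and 3 exchanged, added after the data were seen, gave 1446. Of the member probes 1 was called in the main setting, 3 with the slide block, with the replicate block and with the exchanged block, 2 on slide 2 alone (both CLDN2), 4 in the authors' table (CLDN1, CLDN4 and both CLDN2 probes) and 0 by the methods' t-test (2 at its unadjusted threshold) or among probes above background on all 6 arrays. Leaving out 1 array gave 0 to 1. Without mix culture 1 the called probe was CLDN2 518 bases in, and none was called without single culture 2 or 3 or mix culture 2 or 3. The CLDN2 probe 518 bases in entered these counts through mix culture alone, the group where it was high. Of the other tight junction genes 0 were called in the main setting, 1 with the slide block and 3 in the authors' table. Signs turned at 5 member probes with small differences. CLDN10 at the upstream probe gave -0.05 with normexp, -0.04 without single culture 1 and -0.02 without mix culture 3, and the downstream probe 0.046 without single culture 1. CLDN12 gave 0.099, 0.01 and 0.03 without single culture 2, single culture 3 and mix culture 2. Without mix culture 1, CLDN3 gave 0.058 and CLDN7 0.189. Leaving out 1 array moved CLDN3 between -0.643 and 0.058, CLDN7 between -0.53 and 0.189, CLDN10 between -0.313 and 0.046 (downstream) and between -0.04 and 0.134 (upstream), and CLDN12 between -0.281 and 0.099. The authors' values were already centred within each slide and were fitted with culture alone. That fit does not allow for the centring, so counts from the authors' table are not comparable with those of the other settings. Why the settings differ was not tested. Quantile normalization and no filter on dim probes left the counts within 1.5-fold. CLDN8 and CLDN16 were at background, which limits any statement on them.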

Other observations

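Several claudin genes lie near one another in the dog genome (CanFam3.1), and their values are given side by side here. On chromosome 6 the CLDN4 and CLDN3 probes lie 41.4 kb apart, and their log2 differences, mix culture minus single culture, were -0.87 and -0.40. Farther along the same chromosome the CLDN6 and CLDN9 probes are 2.15 kb apart, with differences of -1.47 (limma adjusted p = 0.0548) and -0.01 (limma adjusted p = 0.996). On chromosome 34 the CLDN1 probe, at 0.35, lies 105 kb from that of CLDN16, which was above background on no array. Whether the neighbours differ from each other was not tested.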
